A study of Mus musculus with 58 samples.

Results

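The Hippo pathway was followed through 10 genes, the core kinases *Stk3*, *Lats1* and *Lats2*, the scaffold *Sav1*, the upstream regulator *Nf2*, the co-activators *Yap1* and *Wwtr1*, and the TEAD factors *Tead1*, *Tead2* and *Tead3*. They were taken by symbol from 31246 genes listed for the entorhinal cortex (EC) and for the primary visual cortex (PVC), and all 10 were found in both lists. RNA-sequencing had been performed on 58 libraries from male C57Bl/6 mice aged 14 to 15 months, with 10 *APOE3/3* and 19 *APOE3/4* mice in each region. All were targeted replacement mice, in which human *APOE* has replaced mouse *Apoe* under the mouse promoter, so the mouse gene was absent from every group. The same 29 animal numbers occur in both regions. The mice of the whole study came from more than 1 colony, and the colony of each sequenced mouse is not given in the sources used here. Whether the sequenced mice themselves came from more than 1 colony is not given either.

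In the Hippo pathway, MST kinases with the scaffold Salvador activate the LATS kinases, which phosphorylate the co-activators YAP and TAZ and hold them in the cytoplasm. Unphosphorylated YAP and TAZ enter the nucleus, where they bind TEAD factors at DNA and switch on genes of growth, adhesion and matrix. In the brain the pathway is best known from neural progenitors, and in the adult YAP is found in astrocytes and in cells of vessels and meninges more than in neurons.

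The value analysed was the authors' mean normalized count, which is a gene's read count divided by a library size factor and averaged over all libraries of 1 region, both genotypes together. A mean over *APOE3/3* and *APOE3/4* mice says nothing of the genotypes, and no values of single mice were used. Every level and difference below therefore has no SD and no test, and differences between the regions have no replicate check. In bulk tissue, fewer cells of a type and less RNA per cell cannot be told apart. The regions were normalized separately. Each mean was therefore divided by the total of its own table and multiplied by 1000000, which gives counts per 1000000 (CPM). Log2 differences in CPM were centred on the median of the 15396 genes with a mean of at least 0.5 CPM over the regions, with 0.1 CPM added to each value. Those totals were 49385488 for the EC and 27058393 for the PVC, and the centring moved the differences by 0.03 on the log2 scale.

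The most abundant member in both regions, also per kilobase of exon, was *Nf2*, which encodes Merlin, a membrane-linked tumour suppressor that helps to activate the LATS kinases. The authors' mean normalized count of *Nf2* was 5672 in the EC against 3071 in the PVC. *Nf2* stood at 114.8 CPM in the EC against 113.5 CPM in the PVC, a difference of −0.01 on the log2 scale. Its level was thus nearly equal in the 2 cortices, at the 92.0th percentile of the genes above 0 in the EC and the 91.6th in the PVC.

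*Sav1*, the scaffold that joins MST to LATS kinases, was equally flat. Its authors' mean normalized count was 1048 in the EC against 579 in the PVC. These are 21.2 and 21.4 CPM, a difference of −0.04 on the log2 scale. *Sav1* and *Nf2* were the 2 members with a difference below 0, and both values are close to the centre of all genes, at the 42.0th and 48.1th percentile of the differences. The sign of *Nf2* depends on the centring, as its difference was 0.02 with the table total and no centring.

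The kinases had log2 differences above 0. *Lats1* had an authors' mean normalized count of 2999 in the EC against 1456 in the PVC. This was 60.7 and 53.8 CPM, a 1.11-fold higher level in the EC. Its paralog *Lats2* had an authors' mean normalized count of 1814 in the EC against 727 in the PVC, or 36.7 and 26.9 CPM. The difference of *Lats2* was 0.42 on the log2 scale, a 1.34-fold higher level in the EC, so the paralogs were unequally placed. *Stk3*, which encodes the MST2 kinase at the top of the cassette, had an authors' mean normalized count of 845 in the EC against 378 in the PVC. At 17.1 and 14.0 CPM its level was 1.20-fold higher in the EC.

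The co-activators differed from each other. *Yap1*, the main effector of the pathway, had an authors' mean normalized count of 2171 in the EC against 718 in the PVC. *Yap1* was at 44.0 CPM in the EC against 26.5 in the PVC, a difference of 0.70 on the log2 scale or a 1.62-fold higher level in the EC. *Wwtr1*, which encodes the paralog TAZ, had an authors' mean normalized count of 841 in the EC against 443 in the PVC. The level of *Wwtr1* was 17.02 and 16.4 CPM, a difference of 0.03 on the log2 scale. The higher level in the EC was thus seen for *Yap1* and hardly for *Wwtr1*.

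The TEAD factors, the DNA-binding partners of YAP and TAZ, were the least abundant members per kilobase of exon. *Tead1* had an authors' mean normalized count of 1104 in the EC against 500 in the PVC, or 22.3 and 18.5 CPM, and was 1.19-fold higher in the EC. *Tead2* had an authors' mean normalized count of only 131.2 in the EC against 41.7 in the PVC. At 2.66 and 1.54 CPM, *Tead2* showed a difference of 0.72 on the log2 scale, a 1.65-fold higher level in the EC. With a pseudocount of 0.1 CPM this was the furthest of the 10 members, and with 1 CPM *Yap1* was, at 0.68 against 0.50 for *Tead2*. *Tead3* had an authors' mean normalized count of 141.5 in the EC against 56.0 in the PVC, or 2.86 and 2.07 CPM. Its level was 1.34-fold higher in the EC.

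**Figure D1:**
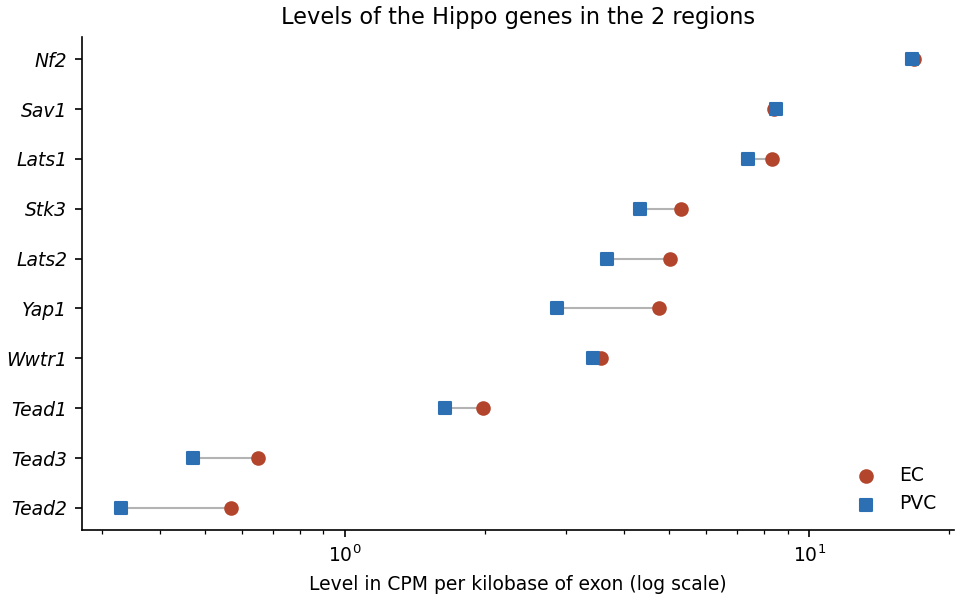
Levels of the 10 Hippo genes, as the authors' mean normalized count in CPM per kilobase of exon, on a log axis, with a circle for the EC and a square for the PVC. *Nf2* lies at 16.8 and 16.6 at the top, *Tead2* at 0.57 and 0.33 at the bottom, and the symbols of *Nf2*, *Sav1* and *Wwtr1* nearly coincide.

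A level more than 1.5-fold apart was taken as a call between the regions. Of the 10 members, 2 were called higher in the EC, *Tead2* and *Yap1*, and 0 were called lower. Among all 15396 genes tested, 1065 (6.92%) were called higher and 766 (4.98%) lower in the EC, 11.9% in all. The members' count is read against that share with no test. The call of *Tead2* was lost with a pseudocount of 1 CPM, with which 734 of all genes were called higher and 601 lower. All 8 markers of meningeal fibroblasts were called higher in the EC as well, and their part in the members' values was not tested. The nearest members within the threshold were *Tead3* and *Lats2*, both at 0.42 on the log2 scale. With the centring used, the differences were above 0 for 8 of the 10 members. The members' median was 0.26 on the log2 scale (1.19-fold), where the median of all genes is 0 by construction. With no spread between mice at hand, it cannot be said which of these differences exceed it.

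**Figure D2:**
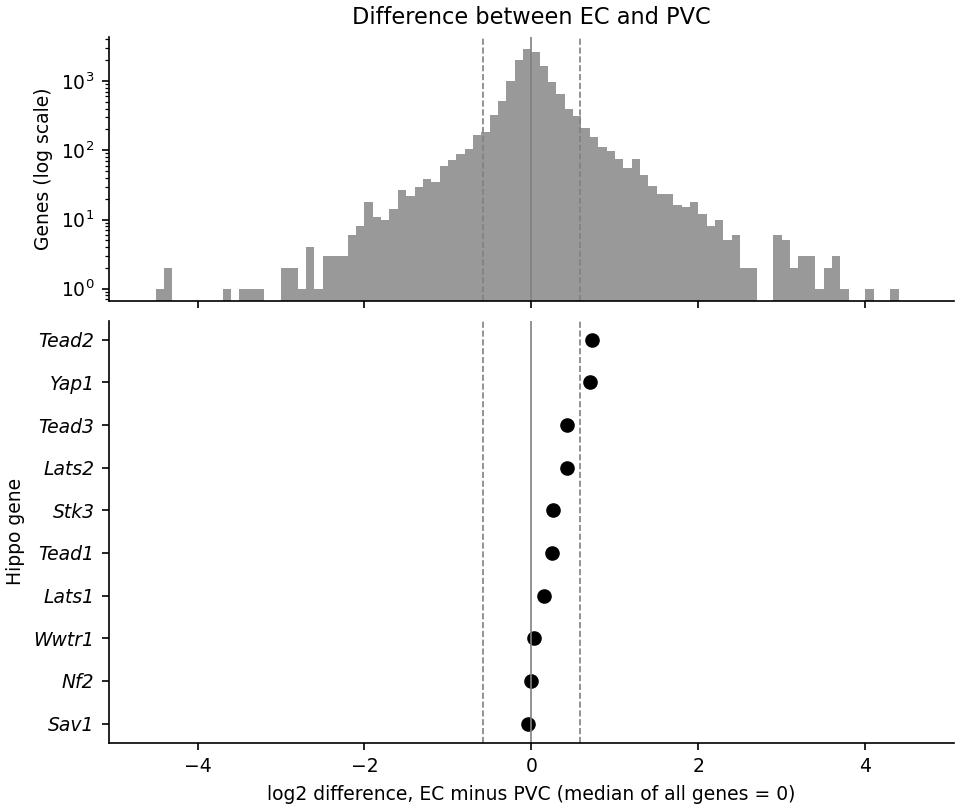
Log2 differences between the regions (EC minus PVC, centred on the median of all genes), as a histogram of all 15396 genes tested on a log count axis and as 1 point for each Hippo gene below it; dashed lines mark 1.5-fold. *Tead2* (0.72) and *Yap1* (0.70) lie beyond the upper line, and the other 8 genes lie between the lines.

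Counts of long genes gather more reads, so members were ranked per kilobase of annotated exon. In CPM per kilobase, the order in the EC ran from *Nf2* at 16.8 through *Sav1* at 8.41, *Lats1* at 8.32, *Stk3* at 5.28, *Lats2* at 5.03, *Yap1* at 4.75, *Wwtr1* at 3.56 and *Tead1* at 1.99 to *Tead3* at 0.65 and *Tead2* at 0.57. The order in the PVC was the same except that *Wwtr1* (3.42) stood above *Yap1* (2.87). Some neighbours were close in the EC, with ratios of 1.01 for *Sav1* over *Lats1*, 1.05 for *Stk3* over *Lats2* and 1.06 for *Lats2* over *Yap1*. With the longest transcript as the length, *Yap1* stood higher, at 8.32 in the EC, close to *Lats1* at 8.42 and *Sav1* at 8.41 and above *Lats2* at 7.07 and *Stk3* at 5.87. In the PVC *Yap1* was then at 5.02, above *Stk3* at 4.79 and *Wwtr1* at 3.48. The middle of the order thus depends on the length used, and *Nf2* at the top and the TEAD factors at the bottom kept their places with both lengths. Whether such neighbours differ beyond the spread between mice was not tested. *Nf2* stood 2.00 times above the next member, and *Tead1* 3.05 times above *Tead3*.

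The balance within paralog families needs no scaling between the tables. Per kilobase of exon, *Yap1* made up 57.1% of the *Yap1* and *Wwtr1* level in the EC against 45.6% in the PVC, a shift of 11.6 percentage points. With the longest transcript as the length, the *Yap1* share was 69.7% in the EC against 59.1% in the PVC, so *Yap1* was then the more abundant of the pair in both regions. A gene's length is the same in both regions, so the direction of the shift toward *Yap1* in the EC could not change with the length used. Which paralog leads in the PVC did change with it.

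*Tead1* was the leading TEAD factor in both regions, with 58.6% of the level of the 4 family members in the EC against 64.3% in the PVC. *Tead3* followed with 19.2% and 18.4%, *Tead2* with 16.8% and 12.9%, and *Tead4*, which is no member of the 10, with 5.38% and 4.40%. The authors' mean normalized count of *Tead4* was 32.4 in the EC against 11.0 in the PVC. *Tead1* is the least certain of these values. A second gene entry of the same symbol covers 34.2% of its exon bases in the NCBIM37 annotation used here for lengths. The authors' annotation was limited to protein coding genes, and whether it held that entry is not given. How the counting treated such reads is not given in the sources used here either. Shared bases were taken over genes of every type in the annotation used here. With only the exon bases that no other gene shares as the length, and the counts unchanged, *Tead1* made up 68.3% in the EC against 73.2% in the PVC. That length suits the counts only if reads on shared bases were left out of them.

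Among the kinases, *Lats1* made up 62.3% of the LATS level in the EC against 66.7% in the PVC. The pair is formed by *Lats1* at 8.32 and *Lats2* at 5.03 in CPM per kilobase in the EC, and by 7.37 and 3.68 in the PVC. With the longest transcript as the length, the *Lats1* share was 54.3% in the EC against 59.1% in the PVC. *Stk3* was the lesser of the MST kinases, with 36.7% in the EC against 34.4% in the PVC, the rest being *Stk4*. *Stk4*, which encodes MST1 and is no member of the 10, had an authors' mean normalized count of 2641 in the EC against 1301 in the PVC.

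**Figure D3:**
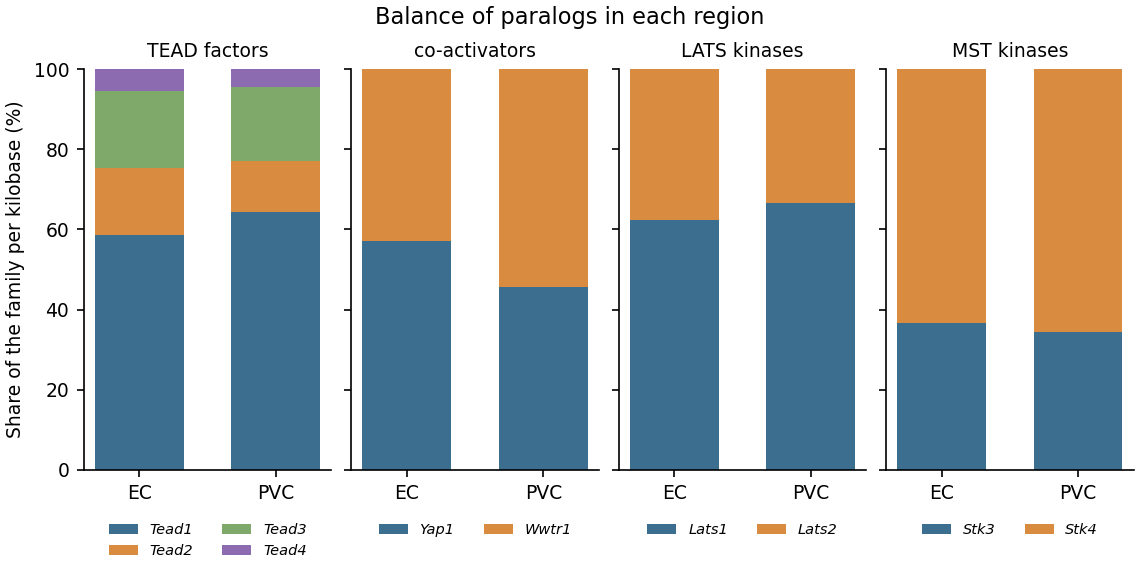
Share of each paralog in the summed level of its family per kilobase of exon, in percent, with 1 stacked bar for the EC and 1 for the PVC in each family. *Yap1* makes up 57.1% in the EC against 45.6% in the PVC, and *Tead1* is the largest part of the TEAD bars.

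Summed over a family, the levels in CPM per kilobase were 8.31 for the co-activators and 3.39 for the TEAD factors in the EC, and 6.29 and 2.56 in the PVC. The ratio of co-activators to TEAD factors was therefore 2.45 in the EC against 2.46 in the PVC. With the longest transcript as the length, this ratio was 2.93 and 2.80. With only exon bases that no other gene shares as the length, and the counts unchanged, it was 1.89 and 1.85. The LATS kinases summed to 1.61 times the co-activators in the EC and 1.76 times in the PVC. With the longest transcript as the length, they summed to 1.30 times in the EC and 1.49 times in the PVC.

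The members lie on different chromosomes apart from *Tead1* and *Tead2*. On the NCBIM37 build, *Yap1* lies on chromosome 9 from 7931999 to 8004596, *Wwtr1* on chromosome 3 from 57259571 to 57379832, *Tead1* on chromosome 7 from 119822832 to 120050319 and *Tead2* on chromosome 7 from 52471123 to 52489005. All 10 are annotated as protein coding. The upstream sequences of *Yap1* and *Tead2* are shown because these were the members called between the regions, and that of *Wwtr1* because it is the paralog that was not. They are the 250 bases before the gene start in the RefSeq table (GRCm38.p6), written in the direction of the gene. Capitals mark GGAATG or its reverse complement CATTCC, the core letters of the motif that TEAD factors bind. The windows are chr9:8004597-8004846 on the minus strand for *Yap1*, chr3:57575911-57576160 on the minus strand for *Wwtr1* and chr7:45215542-45215791 on the plus strand for *Tead2*.
Yap1: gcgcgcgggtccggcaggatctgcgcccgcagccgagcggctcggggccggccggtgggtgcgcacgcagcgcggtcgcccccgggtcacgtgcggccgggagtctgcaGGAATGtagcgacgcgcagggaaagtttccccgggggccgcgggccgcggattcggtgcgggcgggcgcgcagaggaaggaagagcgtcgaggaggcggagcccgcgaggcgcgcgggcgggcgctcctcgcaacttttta
Wwtr1: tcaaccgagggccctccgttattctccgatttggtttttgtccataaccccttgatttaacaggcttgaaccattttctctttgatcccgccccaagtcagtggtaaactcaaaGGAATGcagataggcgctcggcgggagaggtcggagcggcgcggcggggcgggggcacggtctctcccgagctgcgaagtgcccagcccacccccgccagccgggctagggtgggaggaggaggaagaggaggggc
Tead2: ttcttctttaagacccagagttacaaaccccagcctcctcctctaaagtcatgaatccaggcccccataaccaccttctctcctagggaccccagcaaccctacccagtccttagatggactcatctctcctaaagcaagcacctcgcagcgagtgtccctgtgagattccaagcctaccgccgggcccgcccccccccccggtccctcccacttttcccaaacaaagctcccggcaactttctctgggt

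*Yap1* and *Wwtr1* each held 1 match in this window and *Tead2* held 0. Of the 8 members with an entry in the table, 4 held a match, namely *Yap1*, *Wwtr1*, *Tead3* and *Sav1*, where 12.6% of all 27025 upstream windows of that length did. *Tead1* and *Stk3* have no entry. A match of letters is not a binding site. The windows were rich in G and C, with 76.4% in *Yap1*, 61.6% in *Wwtr1* and 57.2% in *Tead2* against a median of 52% over all genes.

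The wider pathway was described by 66 other genes in 5 lists, of which 62 passed the filter. Of these, 9 (14.5%) were called higher and 5 (8.06%) lower in the EC, beside 6.92% and 4.98% of all genes tested, with a median difference of 0.02 on the log2 scale. Counts in the single lists are given beside the same shares, with no test. Of the 12 kinases and adaptors around the core 0 were called in either direction, where 11.9% of all genes were. Their differences ran from −0.29 to 0.25 on the log2 scale. The most abundant by read count was *Taok1*, a kinase that can activate MST and LATS kinases, at 297 CPM in the EC against 246 in the PVC.

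Of 20 genes of upstream and junction proteins 19 passed the filter, and 5 (26.3%) were called higher and 1 (5.26%) lower in the EC. *Crb1*, a polarity protein of apical membranes, had an authors' mean normalized count of 189.7 in the EC against 21.8 in the PVC and was 4.28-fold higher in the EC. *Ptpn14*, a phosphatase that binds YAP, had an authors' mean normalized count of 4443 in the EC against 632 in the PVC and was 3.77-fold higher in the EC. *Fat4*, a giant protocadherin, was 1.71-fold and *Dlg5*, a scaffold of cell junctions, 1.65-fold higher in the EC. *Frmd6*, a FERM protein that acts upstream of the kinases, had the opposite sign with a log2 difference of −1.04. *Tjp1*, a tight junction protein and the most abundant of the list by read count, stood at 126.1 CPM in the EC against 130.8 in the PVC.

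The STRIPAK complex joins a phosphatase to MST kinases and counters them. Of its 10 genes 0 were called higher and 1 (10.0%) was called lower in the EC, the subunit gene *Fam40b* with a log2 difference of −0.92. *Ppp2r1a*, the phosphatase scaffold and the most abundant of the list by read count, stood at 548 CPM in the EC against 518 in the PVC. Of *Tead4* and the 4 Vestigial-like cofactors, which compete with YAP for TEAD factors, 3 passed the filter and 0 were called. *Vgll4*, the most abundant by read count, had a log2 difference of −0.37. *Vgll1* is listed at 0 in both regions.

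Genes known as targets of YAP and TAZ in other tissues were split. Of 19 genes 18 passed the filter, and 4 (22.2%) were called higher and 3 (16.7%) lower in the EC, with a median difference of 0.12 on the log2 scale. *Crim1*, a membrane protein that binds growth factors, was 2.57-fold higher in the EC. *Igfbp3*, which binds insulin-like growth factors, was 2.23-fold higher there. *Ctgf*, a matrix protein and a classic target, had an authors' mean normalized count of 2482 in the EC against 615 in the PVC and was 2.17-fold higher in the EC. *Cyr61*, its relative and the other classic target, had an authors' mean normalized count of 310.1 in the EC against 399.9 in the PVC, a log2 difference of −1.25. *Gadd45a*, a stress response gene, had a log2 difference of −1.22. *Arhgef17*, the most abundant of the list by read count, had one of −0.40. *Ctgf* and *Cyr61* thus lay on opposite sides, and the called targets as a whole did not share a direction.

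**Figure D4:**
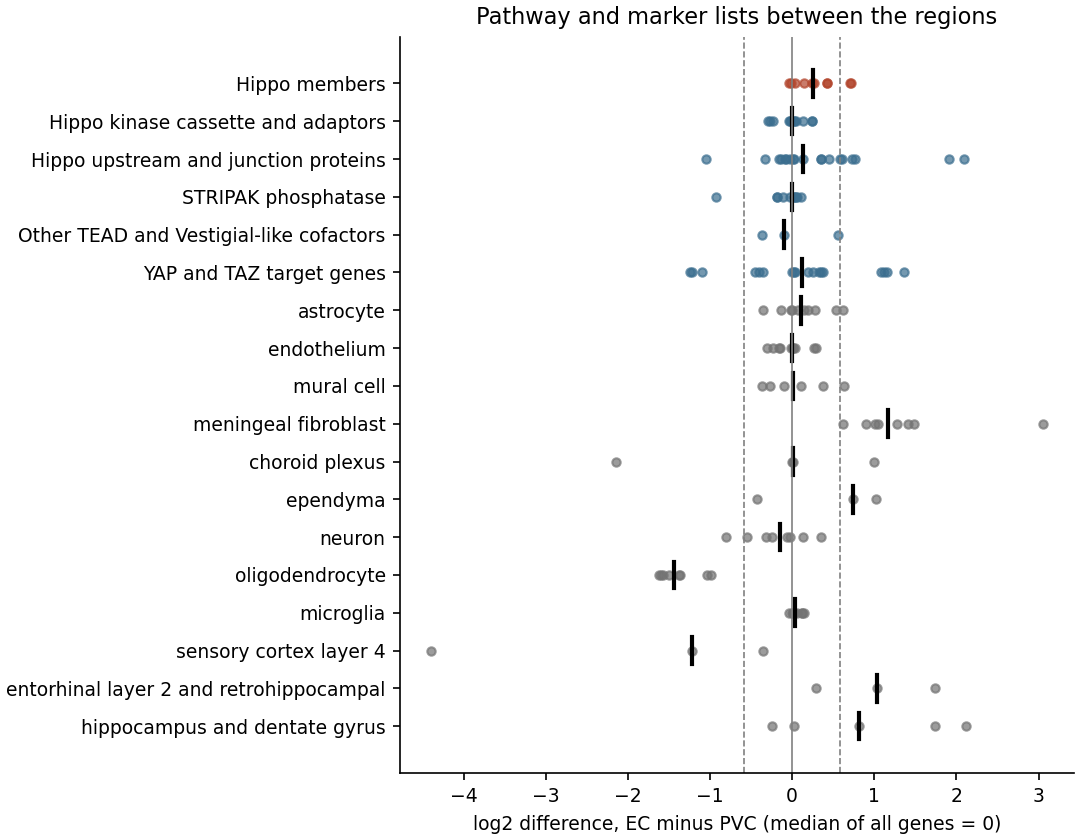
Log2 differences between the regions (EC minus PVC, centred on the median of all genes) for the 10 Hippo members, the 5 lists of other pathway genes and the marker lists, with 1 point a gene, a black bar at each list's median and dashed lines at 1.5-fold. The members' median is 0.26, the meningeal list lies wholly above the upper line and the oligodendrocyte list wholly below the lower line.

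The regions also differed in markers of cell types and areas. All 8 meningeal fibroblast markers were called higher in the EC, with a median difference of 1.16 on the log2 scale and a summed level of 309 CPM in the EC against 111.6 in the PVC. *Igf2* stood at 98.6 and 52.0 CPM, *Dcn* at 92.1 and 10.8, and *Slc13a4* at 36.6 and 12.8. *Dcn* and *Igf2* are not specific to meninges in every setting. All 8 oligodendrocyte markers were called lower in the EC, with a median of −1.44 and sums of 954 and 2414 CPM. *Mbp* and *Cnp* had log2 differences of −1.37 and −0.99.

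Markers of astrocytes, vessels, microglia and neurons differed less. Of the 10 astrocyte markers 1 was called, *Gfap* at 1.53-fold higher in the EC, and the median was 0.11 on the log2 scale, with *Slc1a2* at 0.00, *Aldoc* at −0.02 and *Slc1a3* at 0.19. None of the 10 endothelial markers was called, with a median of 0.00 and with *Slc2a1*, *Flt1* and *Slco1c1* at −0.16, 0.01 and −0.23. Of the 6 mural cell markers 1 was called higher, *Acta2* at 1.55-fold, with a median of 0.01 and with *Rgs5*, *Pdgfrb* and *Abcc9* at −0.09, 0.11 and −0.27. None of the 8 microglial markers was called, and they had a median of 0.04, with *Csf1r* and *Cx3cr1* at 0.15 and 0.12. Of the 8 neuronal markers found 1 was called lower, *Nefl* at −0.81, with a median of −0.15 and with *Snap25*, *Syt1* and *Slc17a7* at −0.55, −0.24 and 0.14. *Gfap*, *Acta2*, *Nefl* and, among the area markers, *C1ql2* and *Dsp* were picked out after their values were seen. The part of cell makeup in the levels of *Yap1*, *Tead2* and the other members was not tested.

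Area markers lay in the direction of the dissection labels. Those of the entorhinal and neighbouring cortex had a median log2 difference of 1.03, with *Reln* 3.34-fold, *Wfs1* 2.04-fold and *Lef1* 1.22-fold higher in the EC. Those of layer 4 of sensory cortex had a median of −1.22, with *Rorb*, *Scnn1a* and *Rspo1* at −1.22, −0.35 and −4.40. The hippocampus is named in neither label. Of 5 hippocampal markers 3 were called higher in the EC, *Fibcd1* (4.35-fold), *C1ql2* (3.33-fold) and *Dsp* (1.77-fold). *Dsp* passed the filter only through the EC, at 0.72 CPM there against 0.36 in the PVC. *Cpne4*, *Fibcd1* and *Prox1* stood at 73.7, 54.3 and 8.29 CPM in the EC against 71.4, 12.2 and 9.69 in the PVC. Choroid plexus markers were low, with 4 of 8 past the filter, 1 called higher and 1 lower in the EC. They summed to 10.0 CPM in the EC against 20.4 in the PVC. The marker called lower was *Ttr*, at 3.14 CPM in the EC against 13.96 in the PVC, and it held most of the PVC sum. *Kl* and *Clic6* stood at 3.92 and 1.097 CPM in the EC against 3.82 and 1.076 in the PVC. Of 5 ependymal markers 3 passed the filter and 2 were called higher in the EC, and the list summed to 6.19 and 5.44 CPM, with *Rsph1*, *Foxj1* and *Ccdc153* at 2.99, 2.16 and 0.86 CPM in the EC. *Ccdc153*, at 0.37 CPM in the PVC, passed the filter only through the EC. So did the choroid plexus marker called higher, at 0.92 CPM in the EC against 0.40 in the PVC.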

How the data were processed

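Poly(A)+ RNA of 58 libraries was sequenced as single-end reads. According to the submitters' processing notes and the methods, the authors aligned reads to mm9 with TopHat2 (2.0.6) and Bowtie2 (2.0.2.0), counted them per gene with HTSeq on an NCBIM37 annotation and used DESeq2 (1.10.1). The deposited mean normalized count, treated as a signal, is the authors' mean per region of counts divided by size factors. Each of the 2 tables also holds 5 columns of the authors' own genotype comparison (log2 fold change, its standard error, statistic and *p*-values before and after adjustment), which were not used. No value of a single mouse was used, so depth per library, replicate error, count models and genotype tests were not analysed here.

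Means were scaled to counts per 1000000 (CPM) of each table. Calculations used pandas 2.3.3 and scipy 1.17.1 under Python 3.11.15 (numpy 2.4.6), and matplotlib 3.10.9 drew the plots. Log2 ratios (pseudocount 0.1 CPM) were computed for genes with a mean of at least 0.5 CPM over the regions and centred on their median, and 1.5-fold was the threshold. These steps were run on simulated means, made from the EC values with 2-fold changes and no spread between mice. That checked the calculation and not how reliable the calls at 1.5-fold are. Exon lengths came from the NCBIM37 GENCODE annotation by symbol, for 81.2% of genes listed and 96.7% of those tested. It is a later release on the build the authors used. Spreadsheet dates stood in place of 25 symbols.

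Members and lists were chosen with earlier results of these data known. Named genes are the members, the called genes of each pathway list (up to 5, the furthest first), the most abundant gene of each pathway list and the 3 most abundant of each marker list, some of which are not reported here. *Tead4*, *Stk4* and *Vgll1* were added to complete families. Of the listed symbols, *Rbfox3* was not matched. Alternatives were other scalings, pseudocounts, filters, thresholds and lengths.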

Additional observations from a re-analysis of the deposited data

How the results depend on the processing

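No paired analysis was possible because each table holds 1 mean over all mice of a region, and for the same reason no mouse could be left out. Scaling by the table total or by a trimmed mean of the log2 ratios moved every difference by 1 constant, which was below 0.1. It could not change the order of the genes or the place of the members among them. The sign of *Nf2*, at −0.01 in the main setting, did change. Its difference was 0.02 with the table total and 0.01 with the filter of 5 CPM. A pseudocount of 1 CPM left 1 member called higher in the EC, as *Tead2* then had a log2 difference of 0.50, and 734 genes higher and 601 lower. A filter of 5 CPM also left 1, since *Tead2* and *Tead3* were then not tested, and gave 516 genes higher and 470 lower in the EC. At a 2-fold threshold these counts were 450 and 306, with 0 members. Without a filter the median of the upstream and junction list was 0.25, that of *Tead4* and the Vestigial-like cofactors was 0.23 (−0.35 with the filter of 5 CPM) and that of the ependymal markers reversed to −0.42. The ependymal list had no gene left under the filter of 5 CPM. Lengths over exon bases that no other gene shares, and the longest transcript for the order of members and the ratio between families, were alternatives chosen after the data were seen. Without a length correction *Yap1* made up 72.1% of its pair in the EC and 61.9% in the PVC. Low levels of *Tead2*, *Tead3* and *Tead4* limit their values most, since the depth of single libraries is unknown.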
